A study of Mus musculus with 12 samples.

Results

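Plac8 is known from myeloid and lymphoid cells but was grouped as little studied with Rnase12, Mtus1, Chst13, Pxylp1 and Ccdc125, giving 6 genes. In these data 10315 genes had a measured probe. The 6 were picked because their signal was low in unsorted bone marrow (BM) control cells and much higher in the same kind of culture after Cre. That choice used the BM levels themselves and set no numeric threshold, so the BM difference between Cre and control is described here without a test. The stated rule does not use the difference between CD34+ Cre and CD34+ control, which is tested, although the genes were picked with earlier results of all groups known.

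The cells were mouse marrow of genotype Bcor Fl/Y, a male with 1 copy of the X-linked corepressor gene Bcor whose exons 9 and 10 lie between LoxP sites. All cells were from animals 3 months old and were grown in 20% fetal bovine serum with stem cell factor at 50 ng/ml, IL-3 at 10 ng/ml and IL6 at 25 ng/ml. All of them, controls included, were infected with a retrovirus and selected with puromycin: the control virus was empty and the other carried Cre recombinase, which removes the 2 exons. RNA came from unsorted BM cells or from CD34+ cells sorted by flow cytometry, with 3 arrays in each of the 4 groups (CD34+ control, CD34+ Cre, BM control and BM Cre). Each CD34+ arm holds 2 repeats of marrow number 2 and 1 array of marrow number 4, so it stands on 2 marrows. Nothing in the labels says whether the BM repeats came from separate animals, so every p-value rests on the spread among the arrays at hand, which may be technical.

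Between 34.4% and 36.2% of probes were detected on a CD34+ array and between 37.5% and 39.2% on a BM array. Bcor, the targeted gene, was lower in BM Cre than in BM control by both of its measured probes (log2 difference -1.15 ± 0.24 SE, adjusted p = 0.00643 by limma with Benjamini-Hochberg adjustment, and -1.27 ± 0.22 SE, adjusted p = 0.00207). In CD34+ cells the same probes differed by -0.48 ± 0.24 SE (adjusted p = 0.459) and -0.43 ± 0.22 SE (adjusted p = 0.479). The Bcor level was 8.93 and 9.08 on the number 2 Cre arrays but 9.95 on the array labelled number 4 Cre, against 9.69 to 9.91 on the CD34+ controls. The CD34+ values of Plac8 and Rgcc and the count of listed genes are therefore also given by marrow number or without that array. Cd34 transcript was detected on all 12 arrays, at a mean log2 level of 10.26 in CD34+ control and 10.17 in unsorted BM control. The 10 mast cell markers were detected on every array of all 4 groups, CD34+ cells included.

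The 6 genes belong to separate families. Pxylp1 and Chst13 act on the same class of molecule, the glycosaminoglycans, which are long sulfated sugar chains attached to core proteins. Chain assembly starts with a short linker on the core protein. The kinase Fam20b phosphorylates the xylose of that linker and the phosphatase encoded by Pxylp1 removes the phosphate again. Chst13 then belongs to the carbohydrate sulfotransferases that place sulfate at the 4 position of chondroitin. In blood cells such chains are best known on serglycin, the core protein packed into the granules of mast cells and neutrophils. Rnase12 is a member of the ribonuclease A family, whose other members include the eosinophil-associated ribonucleases and angiogenin. Plac8, also called onzin, is a small cysteine-rich protein of myeloid and lymphoid cells. Mtus1 encodes microtubule-associated proteins that also bind the angiotensin type 2 receptor. Ccdc125 is a coiled-coil protein reported in human cells to reduce cell motility.

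Plac8 gave the brightest signal of the 6 genes' probes in BM Cre cells and was the only one of the genes that had been detected before Cre. Its background-subtracted scanner signal, in arbitrary fluorescence units, was 167, 157 and 203 on the 3 BM control arrays and 16123, 17304 and 17220 on the 3 BM Cre arrays. The lowest BM Cre signal was thus 79.6 times the highest control signal. On the normalised log2 scale Plac8 stood at 7.34 ± 0.23 (SD, n = 3) in BM control and 13.95 ± 0.11 in BM Cre, a difference of 6.61. Calling it switched on does not describe Plac8, since every BM control array detected it.

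The other genes had no detectable signal in any control group. Rnase12 read 12.1, 2.14 and -9.48 in BM control, where values near or below 0 are what remains after background subtraction, and 2314, 2771 and 2784 in BM Cre. Pxylp1 read 13.7, 9.81 and 9.78 against 1953, 2156 and 1588. Every BM Cre array was far above every control array for both genes. Against the lowest detectable signal, Rnase12 was at least 54.9-fold higher in BM Cre and Pxylp1 at least 39.4-fold higher.

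Mtus1, Chst13 and Ccdc125 reached lower signals in BM Cre. The brighter Mtus1 probe read -7.45, 3.27 and -0.627 in BM control and 758, 525 and 675 in BM Cre, which is at least 13.2-fold higher. Chst13, the chondroitin sulfotransferase, read 2.52, -4.13 and 6.45 against 492, 511 and 526, at least 10.4-fold higher. Ccdc125 read -2.71, 15.9 and -0.178 against 506, 414 and 501, at least 9.68-fold higher. Over the 7 measured probes the SD of the 3 BM Cre arrays ran from 0.05 for Ccdc125 to 0.29 for Pxylp1 on the log2 scale. Since these are bulk samples, more cells of a type and more RNA per cell cannot be told apart.

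In all, 7 of the 7 measured member probes had every BM Cre array above every BM control array, where 15.8% of the 19274 kept probes did. The members were chosen on that contrast, so nothing is read from the count.

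**Figure D1:**
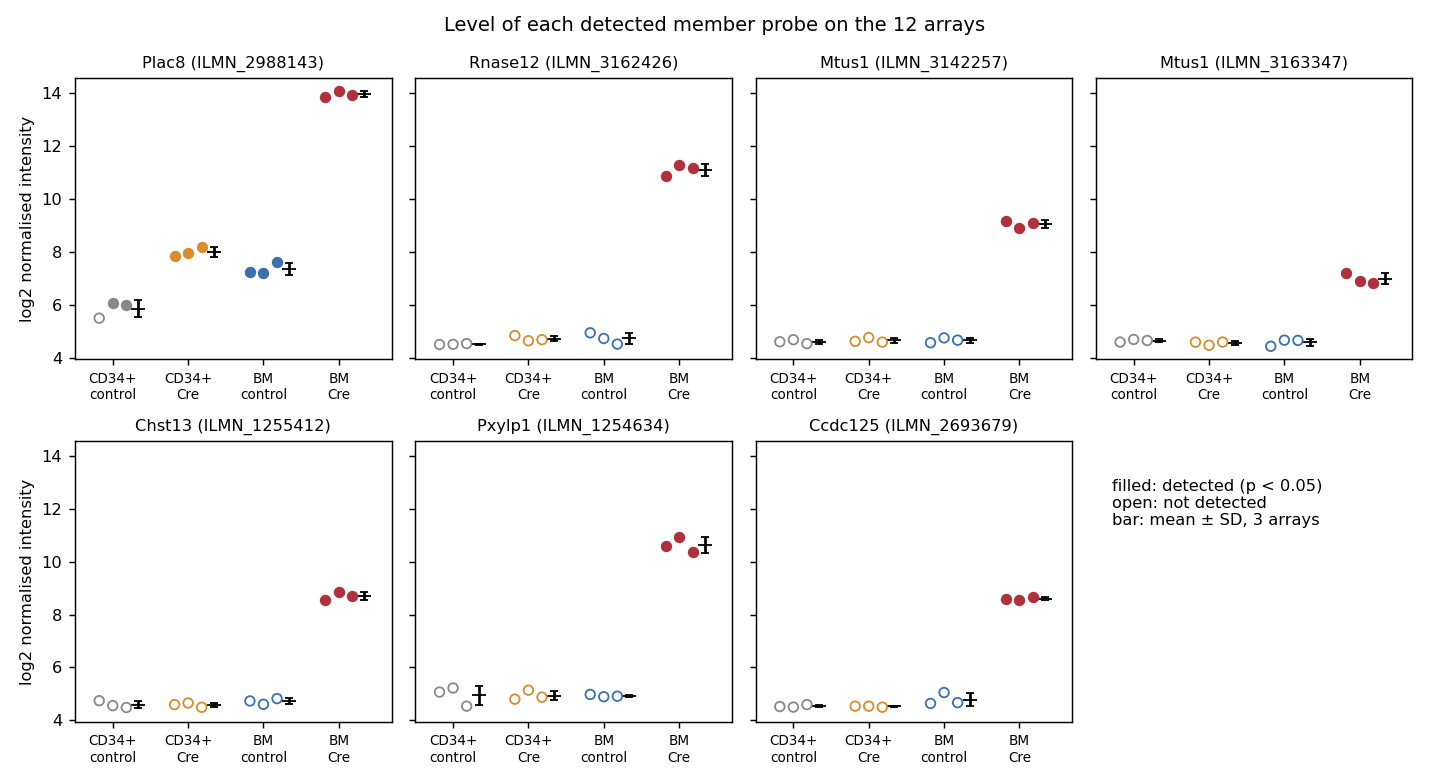
Log2 normalised intensity (y axis) of the 7 measured member probes on the 12 arrays, by group (x axis); filled points were detected (p under 0.05), open points were not, and the black bar is the mean ± SD of 3 arrays. BM Cre stands above the other groups in every panel, and Plac8 alone is also detected in the other 3 groups.

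Markers of myeloid cells differed between the same BM groups. All 12 neutrophil granule markers were higher in BM Cre at an adjusted p under 0.05, against 7.09% of all kept probes, and their summed normalised intensity was 7496 to 11597 in BM control and 187669 to 235452 in BM Cre. Of these, Elane, Prtn3 and Mmp8 were undetected on all BM control arrays. Of the 5 eosinophil markers with a probe 4 rose and none fell, with a summed level of 1757 to 13326 in control and 106764 to 119305 in Cre. Of the 8 monocyte and macrophage markers 5 rose, and of the 3 basophil markers 2 rose and 1 fell. The 10 mast cell markers summed to 309731 to 362426 in control and 255727 to 284763 in Cre, with 1 risen and 4 fallen. Of the 3 measured stem and progenitor markers 2 fell. Of the stroma list only Acta2 was measured, and it rose. No B cell, T cell or NK cell marker passed the detection filter. The part of these cell types in the levels of the 6 genes was not tested.

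The array carried 17 probes for the 6 genes, and they did not all report the same. Plac8, Rnase12, Chst13 and Ccdc125 have 1 probe each, so nothing on the array checks them. Mtus1 has 8 probes. The 2 that were measured, ILMN_3142257 and ILMN_3163347, reached mean log2 levels of 9.05 and 6.98 in BM Cre from 4.65 and 4.58 in control, and the dimmer one read 192, 122 and 136 in BM Cre. The other 6 Mtus1 probes were detected on none of the 12 arrays. They include all 4 probes annotated to the transcript NM_001005863, while the transcripts NM_001005864 and NM_001005865 each have 1 detected and 1 undetected probe. Pxylp1 has 5 probes, of which ILMN_1254634 carries the values above. Its probe ILMN_1253926 was detected on 1 BM Cre array alone, with signals of 16.3, 6.52 and 32.1, and the other 3 on none. The Mtus1 and Pxylp1 results thus rest on 2 of 8 and 1 of 5 probes.

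**Figure D2:**
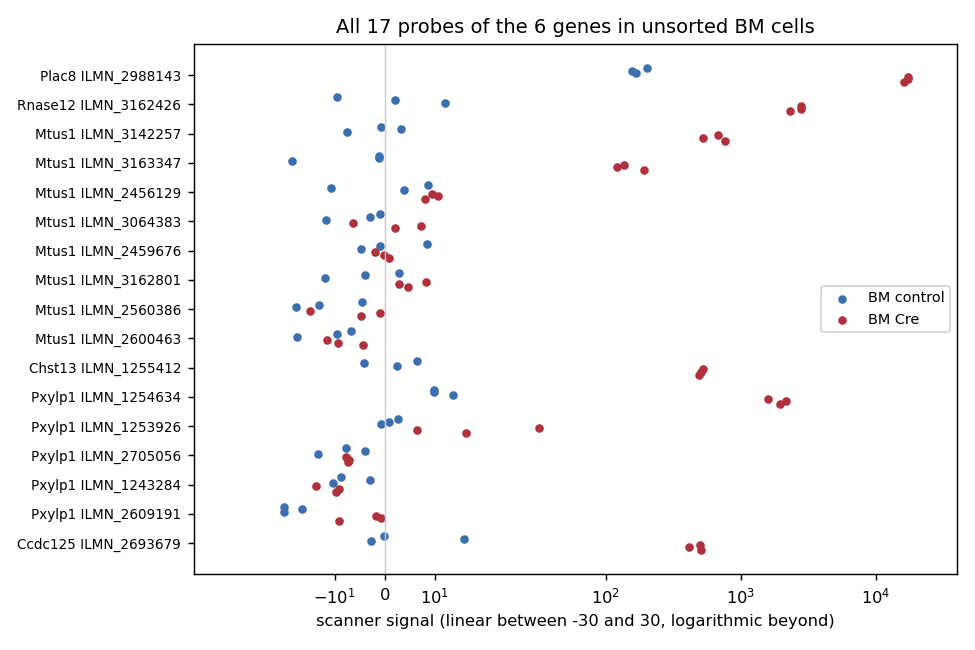
Background-subtracted scanner signal (x axis, arbitrary units, linear between -30 and 30 and logarithmic beyond) of all 17 member probes, 1 per line, on the 3 BM control and 3 BM Cre arrays. The 7 measured probes separate the groups, while the other 10 read near 0 on both sides, with ILMN_1253926 of Pxylp1 slightly raised. Measured probes are those detected on 3 arrays or more, which all but Plac8 met through BM Cre alone. The split therefore largely follows from that filter.

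In the authors' deposited value table most of this signal is missing. Rnase12, both Mtus1 probes, Chst13 and Ccdc125 (5 of the 7 probes) stand at its lowest value, 24, on all 12 arrays, although the deposited scanner signals of the same arrays were 122 to 2784 in BM Cre. Pxylp1 is at 24 on 9 arrays and at 1060, 2056 and 1503 on the BM Cre arrays in the authors' deposited table. Plac8 is above it everywhere. The values used here come from the scanner table for that reason.

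The genes do not share a promoter type. RefSeq promoters (GRCm38.p6, 250 bases before to 50 bases after the start) were at hand for 5 of the 6 genes, and the first Plac8 start, Rnase12 and Pxylp1 are shown because they carry the contrast in base composition and the motif matches. In the Plac8 promoter (chr5:100572156-100572455, minus strand) capitals mark matches to the RUNX motif TGTGGT, all 3 on the opposite strand. In the Rnase12 promoter (chr14:51057193-51057492, minus strand) they mark the C/EBP motif TTGCAA and then the BCL6 core motif TCCTNGA. In the Pxylp1 promoter (chr9:96889425-96889724, minus strand) they mark every CpG.
Plac8: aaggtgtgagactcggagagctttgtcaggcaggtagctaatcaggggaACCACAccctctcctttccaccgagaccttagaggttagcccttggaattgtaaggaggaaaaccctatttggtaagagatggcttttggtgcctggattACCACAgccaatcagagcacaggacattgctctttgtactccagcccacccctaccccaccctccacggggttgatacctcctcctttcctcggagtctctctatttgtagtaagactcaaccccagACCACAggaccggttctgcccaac
Rnase12: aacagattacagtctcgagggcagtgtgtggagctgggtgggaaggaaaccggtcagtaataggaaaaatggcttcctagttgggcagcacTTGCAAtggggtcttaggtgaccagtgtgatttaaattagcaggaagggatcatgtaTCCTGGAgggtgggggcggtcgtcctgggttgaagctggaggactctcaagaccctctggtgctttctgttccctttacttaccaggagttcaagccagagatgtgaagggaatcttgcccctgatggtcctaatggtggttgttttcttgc
Pxylp1: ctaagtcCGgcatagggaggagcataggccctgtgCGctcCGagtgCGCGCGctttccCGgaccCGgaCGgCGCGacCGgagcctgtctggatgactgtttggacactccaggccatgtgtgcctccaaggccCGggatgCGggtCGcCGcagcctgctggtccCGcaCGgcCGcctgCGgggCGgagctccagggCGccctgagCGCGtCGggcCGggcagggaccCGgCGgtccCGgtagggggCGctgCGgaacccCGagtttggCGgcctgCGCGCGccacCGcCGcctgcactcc
Pxylp1 holds 38 CpG and is 74.3% G and C, against a median of 7 CpG over all 32851 promoters (quartiles 3 and 20). The Plac8 and Rnase12 windows hold 5 and 4. Chst13 (14 CpG), Ccdc125 (11 CpG) and the second Plac8 start (9 CpG) lie between them.

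Of 6 motifs searched on both strands, none was found in more than 2 of the 6 promoter windows. The RUNX motif was in the first Plac8 window only, and 16.8% of all promoters hold it. The C/EBP motif was in Rnase12 only (6.23% of all), and the BCL6 core motif in Rnase12 and Chst13 (17.1% of all). The PU.1 motif GGAAGT (23.8%), the GATA motif AGATAA (11.2%) and the TATA box TATAAA (13.6%) were in none of them. No matches overlapped. These are letter matches in short windows, and they say nothing of whether a factor binds.

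In sorted CD34+ cells Plac8 was the only member with a detected probe, and it passed the test between Cre and control. Its signal was 25.7, 34.9 and 42.0 on the control arrays, the first of them not detected, and 166, 195 and 176 on the Cre arrays. Every Cre array was above every control array, which on the normalised scale held for 2 of the 7 member probes (Plac8 and the undetected Rnase12) and for 7.17% of all kept probes. The normalised level rose from 5.85 ± 0.31 to 7.99 ± 0.19 (SD, n = 3), a log2 difference of 2.14 ± 0.20 SE or 4.41-fold, with a 95% interval of 1.71 to 2.57 (limma, adjusted p = 0.00034). Plac8 was 1 of the 119 probes past an adjusted p of 0.05 in this comparison, which are 0.617% of those tested, and 1 of the 73 that rose (0.379%). It was higher in both marrows, by 2.11 in number 2 and by 2.19 in number 4. The array labelled number 4 Cre, on which Bcor was not lower, carried the highest CD34+ Plac8 level, at 8.19. The main fit counts the 2 repeats of marrow number 2 as separate arrays. With these repeats averaged the limma adjusted p was 0.00704, and with marrow number as a random block it was 0.0185. In a fit of the 6 CD34+ arrays alone the difference was the same and the adjusted p was 0.0527, which ends the call.

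**Figure D3:**
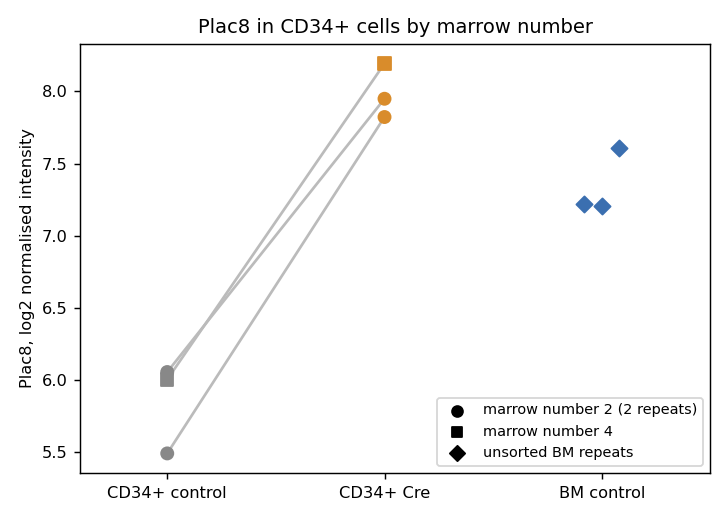
Log2 normalised intensity of Plac8 (y axis) on the CD34+ control, CD34+ Cre and BM control arrays (x axis), with the marrow given by the symbol and lines joining CD34+ arrays of the same marrow and repeat number. Each line rises by about the same amount, and all CD34+ Cre points lie above the BM control points.

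Markers of other cells were set beside this result. None of the 12 neutrophil granule markers passed the limma test in either direction, and 0 reached an unadjusted p under 0.05. Their summed level was 16847 to 33808 in control and 32301 to 36122 in Cre. Ctsg, the one marker detected on all arrays of both groups, made up nearly all of it, at mean log2 levels of 14.61 and 15.06. The sum therefore says little of the other 11 markers. On all 3 CD34+ control arrays 11 of the 12 were undetected. On the CD34+ Cre arrays 8 were, among them Mpo, Ltf, Camp and Ngp, which encode proteins of neutrophil granules. Of the 8 monocyte and macrophage markers none passed and 2 had an unadjusted p under 0.05. The 2 were Lyz1 and Lyz2, with log2 differences of 1.86 and 2.15 (limma adjusted p = 0.301 for each). Their SDs on the Cre arrays were 1.55 and 1.48. The other markers of that list differed by -0.28 to 0.84. The summed level of the list was 989 to 1356 in control and 1646 to 7812 in Cre. No marker of another list passed either, with 4 of 10 mast cell markers and 1 of 3 basophil markers at an unadjusted p under 0.05. These were Hdc (log2 difference 1.29), Tpsb2 (-0.85), Tpsab1 (-2.16) and Mcpt4 (-2.38), and the basophil marker Mcpt8 (-1.05). The share of all kept probes at that unadjusted p is not given here, so nothing is read from these counts. The part of the markers in the Plac8 difference was not tested.

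The other 6 member probes were undetected on all 6 CD34+ arrays. Rnase12 read -12.1 to -9.19 in control and -3.04 to 5.36 in Cre. Chst13 read -12.7 to 2.25 and -11.0 to -2.10, Pxylp1 -8.75 to 15.8 and 4.16 to 14.5, and Ccdc125 -10.6 to -5.10 and -10.8 to -8.16. The brighter Mtus1 probe read -9.23 to -0.812 and -5.07 to 2.42. All 6 probes passed the detection filter through the BM Cre arrays alone. Their log2 differences lay between -0.09 and 0.21 with adjusted p between 0.699 and 0.997 in limma, and 0 had an unadjusted p under 0.05. The 95% intervals reached from -0.48 to 0.60. Because these signals lie in the background, an interval bounds the measured signal and not a change in RNA below detection. With background in both CD34+ groups, a call was unlikely from the start and nothing is read from the p-values.

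The order of Plac8 levels over the 4 groups was CD34+ control, BM control, CD34+ Cre, BM Cre. On the normalised scale no neighbouring groups in this order overlap: the highest CD34+ control array stood at 6.05 and the lowest BM control at 7.20, the highest BM control at 7.61 and the lowest CD34+ Cre at 7.82. In scanner signal BM control (157 to 203) and CD34+ Cre (166 to 195) do overlap, so the order of this middle pair depends on the normalisation. BM Cre was 5.96 log2 units above CD34+ Cre. For the other genes BM Cre was the one group with a level. It was at least 48.4-fold above CD34+ Cre for Rnase12, 34.7-fold for Pxylp1, 11.6-fold and 2.76-fold for the Mtus1 probes, 9.18-fold for Chst13 and 8.53-fold for Ccdc125. Whether the effect of Cre differed between BM and CD34+ cells was not tested, because the BM effect chose the genes.

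The genes with the most alike profiles were found by the root mean square (RMS) difference of the log2 levels over the 12 arrays, each profile centred on its own mean. This is a description over arrays that share their groups. For every member but Plac8, the member and its named matches were detected in BM Cre only. Their RMS difference therefore mostly compares the size of the BM Cre rise, which chose the members, and nothing further is read from it. Chst13 and Ccdc125 were nearest to each other of all genes, at 0.18, and Mtus1 was the third nearest to both, at 0.22 and 0.23. Their next matches were Bcas1 for Chst13 (0.20) and Mogat2, an acylglycerol acyltransferase, for Ccdc125 (0.22). Mtus1 itself was nearest to Hoxa7, a homeobox transcription factor (0.16), followed by Fcnb and Lrg1 (both 0.21), which encode the lectin ficolin B and a leucine-rich glycoprotein. Rnase12 was nearest to Nkg7 (0.31), to the myeloid receptor gene Trem3 (0.37) and to the haptoglobin gene Hp (0.38). Pxylp1 was nearest to the prolyl hydroxylase gene Egln3 (0.23), to Hp (0.29) and to Trem3 (0.33). Between members the RMS difference ran from 0.18 to 1.49, the largest between Plac8 and Ccdc125, which differ most in the size of the BM difference.

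Plac8, the one member also detected in other groups, had no match as close. Its nearest gene was Rgcc, a regulator of the cell cycle, at 0.59, followed by Nkg7 at 0.73 and Rnase12 at 0.76. Rgcc was undetected on the CD34+ control arrays (3.03, 1.53 and 1.52) and detected on all CD34+ Cre arrays (42.3, 47.7 and 82.2). Its CD34+ log2 difference was 1.83 (limma, adjusted p = 0.0239). That call was lost with either control repeat of marrow number 2 left out (adjusted p = 0.105 and 0.115) and with either Cre repeat of it left out (adjusted p = 0.0576 and 0.0668). It was also lost with repeats averaged (adjusted p = 0.238), with marrow number as a random block (adjusted p = 0.123), with the 6 arrays alone (adjusted p = 0.115), with median scaling (adjusted p = 0.0619) and with an offset of 50 (1.10, adjusted p = 0.0885). Without the array labelled number 4 Cre the difference was 1.51 (adjusted p = 0.00873). In BM, Rgcc went from a mean log2 level of 5.20 to 11.72.

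The partners of the 6 genes in their families and pathways were described from lists. Over 7 lists of 81 genes, 75 had a probe and 48 were measured. In BM, 7 of the 48 rose and 6 fell at an adjusted p under 0.05, against 7.09% and 6.95% of all kept probes, and the median log2 difference was -0.12 against -0.07 over all kept probes. In CD34+ cells none of the 48 passed the limma test, 13 had an unadjusted p under 0.05, and the lowest adjusted p was 0.115. The share of all kept probes at that unadjusted p is not given here, so nothing is read from the 13. With the arrays paired by number and repeat, or by marrow number, 2 or 7 passed in CD34+ cells, where 365 or 907 of all probes did. Without the array labelled number 4 Cre 11 passed, where 1816 of all probes did. With repeats averaged or marrow number as a random block, 0 listed genes passed.

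Around Pxylp1, none of the 6 measured linker genes passed in BM, with 1 at an unadjusted p under 0.05. Fam20b, the kinase that Pxylp1 counteracts, went from 8.25 to 8.05 (log2 difference -0.20 ± 0.18 SE, limma adjusted p = 0.525). The lowest adjusted p was 0.145, for the xylosyltransferase Xylt2. Of the 12 measured heparan genes 3 fell and none rose, against 6.95% and 7.09% of all kept probes. The log2 differences were -1.22 ± 0.13 SE for Hs6st2 (adjusted p = 5.12e-05 by limma), -1.13 ± 0.18 SE for Hs6st1 (adjusted p = 0.00112) and -2.45 ± 0.49 SE for Hs3st1 (adjusted p = 0.00459). These enzymes place sulfate at the 6 and 3 positions of heparan chains.

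Around Chst13, 2 of 9 measured chondroitin genes rose and 2 fell in BM, against 7.09% and 6.95% of all kept probes. Csgalnact1, which adds the sugar that starts a chondroitin chain, rose by 1.42 ± 0.24 SE (limma adjusted p = 0.00172). Chpf, a chain polymerising factor, rose by 0.71 ± 0.22 SE (adjusted p = 0.0481). Chst15, which adds a further sulfate at the 6 position, fell by 0.93 ± 0.26 SE (adjusted p = 0.0341), and the epimerase relative Dsel fell by 0.82 ± 0.25 SE (adjusted p = 0.0467). The Chst15 arrays of the groups overlap. Chpf, Chst15 and Dsel each lost the call when single arrays were left out, with adjusted p up to 0.183, 0.142 and 0.153. Of 25 alternative runs in all, 13, 9 and 14 lost the call, and some of these left no array out. Other 4-O-sulfotransferases were present before Cre: Chst11 stood at 8.24 in BM control and 8.02 in BM Cre (adjusted p = 0.489), and Chst12 at 7.85 and 8.95 (adjusted p = 0.0835).

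Among 9 measured sulfate donor and core protein genes, Sdc4, a cell surface proteoglycan core, was the one past the threshold in BM. It rose by 1.74 ± 0.32 SE (limma adjusted p = 0.00259), from a control group in which 1 of 3 arrays detected it. Serglycin (Srgn) had a mean log2 level of 13.85 in BM control and 13.47 in BM Cre (adjusted p = 0.175).

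The ribonuclease A family held the most calls for its size of the 7 lists. Of 18 listed genes 15 had a probe and 6 were measured. In BM 4 of these rose and 1 fell, against 7.09% and 6.95% of all kept probes, with a median log2 difference of 2.79. Ear6 rose by 5.82 ± 0.57 SE (limma adjusted p = 2.01e-05) and Ear10 by 4.20 ± 0.49 SE (adjusted p = 8.3e-05). These eosinophil-associated ribonucleases are near-identical copies, so a probe may read several of them. Rnase2a, undetected in BM control, rose at least 5.06-fold (adjusted p = 7.6e-05). Rnase4, a broadly expressed secreted member, rose by 2.60 ± 0.49 SE (adjusted p = 0.00336). Rnase6 fell by 0.86 ± 0.22 SE (adjusted p = 0.023). That call was lost without either of the first 2 BM control arrays or either of the last 2 BM Cre arrays (adjusted p = 0.0622 to 0.102). It was also lost with median scaling (adjusted p = 0.076) and in the authors' table (adjusted p = 0.0718). Ear6 is also an eosinophil marker, and Epx, Prg2 and Prg3 of that list rose as well.

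No gene of the remaining lists passed the limma test in BM. Of 6 measured Mtus1 relatives and microtubule end partners none passed, with 0 at an unadjusted p under 0.05. The Plac8 domain relatives Plac8l1 and Cnfn were not measured.

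**Figure D4:**
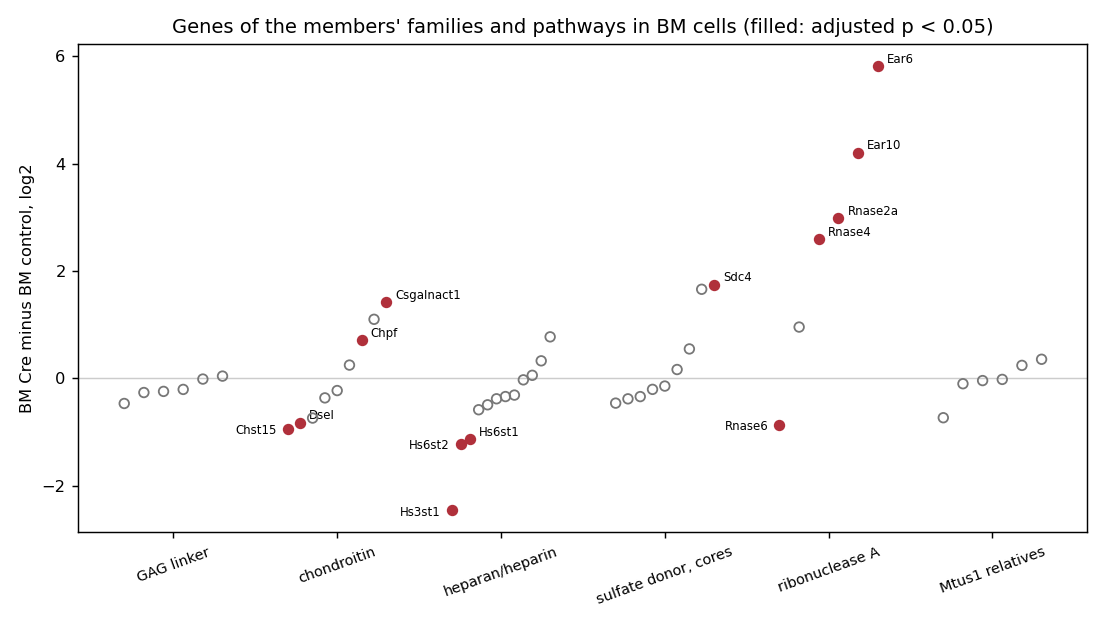
Log2 difference between BM Cre and BM control (y axis) of the 48 measured genes in 6 of the 7 lists (x axis), sorted within each list. Filled points have an adjusted p under 0.05 and are named. The 4 highest filled points are ribonucleases, and the linker and Mtus1 lists hold none.

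The genes lying beside the 6 members on the chromosome were looked at next. Taking 2 protein-coding genes on each side, a set added after the members' values were seen, gave 24 neighbours, of which 22 had a probe and 16 were measured. In BM 3 of the 16 rose and none fell, against 7.09% and 6.95% of all kept probes. Spsb4, next to Pxylp1 and an adaptor of a ubiquitin ligase, was undetected in control and rose at least 2.17-fold (log2 difference 1.77 ± 0.19 SE, limma adjusted p = 3.72e-05). Slc7a2, a cationic amino acid transporter near Mtus1, rose by 1.49 ± 0.36 SE (adjusted p = 0.0146). Hpse, the heparanase gene near Plac8, rose by 0.88 ± 0.27 SE (adjusted p = 0.0466). Slc7a2 and Hpse were detected on 1 of 3 control arrays, so the size of their rise depends on the offset. Both lost the call when single arrays were left out, with adjusted p up to 0.0632 and 0.187. In all, Slc7a2 lost it in 3 of 25 alternative runs and Hpse in 15 of 24, including runs that left no array out.

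Of the genes closest to Plac8, Lin54 differed by 0.10, Cops4 by 0.10 and Coq2 by -0.08. On either side of Rnase12, its relatives Rnase9 and Rnase11 and the olfactory receptor gene Olfr750 did not pass the detection filter. Ang, the next one out, went from 4.85 to 5.80 (adjusted p = 0.0837). The measured neighbours of Chst13 and Ccdc125 had adjusted p between 0.196 and 0.786. In CD34+ cells none of the 16 passed, with 1 at an unadjusted p under 0.05.

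**Figure D5:**
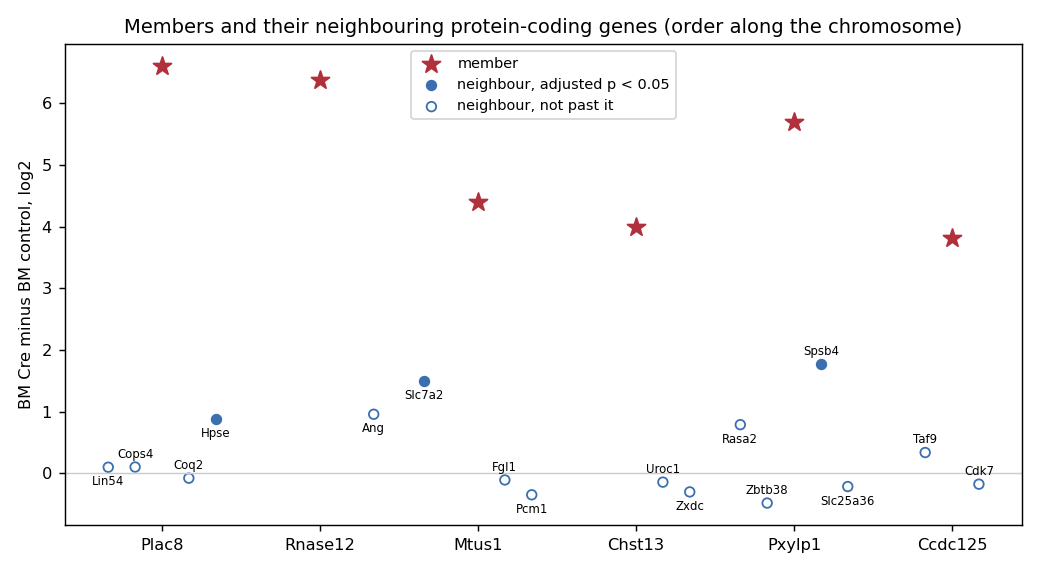
Log2 difference between BM Cre and BM control (y axis) of each member (star, brighter probe for Mtus1) and its measured neighbours in chromosomal order (circles, filled where the adjusted p is under 0.05). The members stand between 3.82 and 6.61 and the neighbours between -0.48 and 1.77.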

How the data were processed

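RNA was measured on 1-colour Illumina arrays of 45281 probes in 12 samples. Per the file headers, the authors' scanner table gives each array 2 columns, a linear intensity with its background subtracted and a detection p-value. A second table by the authors holds linear intensity scaled between arrays with a floor of 24. Its method and centring are not stated, and RMA is named, with no role, in the submitters' processing notes.

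The neqc function of limma 3.58.1 (R 4.3.3) corrected these signals by normexp, added an offset of 16, took quantiles to a common distribution and gave log2 values. Kept and tested were the 19274 probes detected (p-value under 0.05) on 3 arrays or more. One model of the 4 groups (lmFit, eBayes with trend) used all 12 arrays and left 8 residual degrees of freedom. P-values were adjusted by Benjamini-Hochberg over all kept probes. An "at least" fold is given against a group that detected the probe nowhere, with each of its arrays raised to the lowest signal it detected for any probe. Such a fold holds for the offset of 16 and is smaller with a larger offset. A gene outside the 6 is given by its brightest kept probe, while the shares of all kept probes set beside gene counts include every kept probe of a gene. Symbols come from the platform annotation (34885 probes with 1 symbol, 18 with several, 10378 with none here) and RefSeq names. Marker levels are sums of linear normalised intensity. The fit was tested on simulated data.

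Members, lists and markers were chosen with earlier results of these data known. One gene list is not reported here. Named genes are the 6 members, Bcor, list genes past the threshold (up to 6 per list and direction) and the 3 most alike profiles per member. Fam20b, Xylt2, Chst11, Chst12, Srgn and the neighbours were named after their values were seen.

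Same-numbered arrays deviated together (r = 0.353 to 0.502 in CD34+ and 0.134 to 0.429 in BM). In CD34+ cells, Cre and control arrays of marrow number 2 with different repeat numbers did so as much (r = 0.356 and 0.378). The marrow number in the labels thus pairs the CD34+ arrays, and the repeat number adds nothing visible. In BM, differently numbered arrays had r of -0.372 to 0.047, but the labels do not say what same-numbered repeats share. With marrow number and repeat as a block, 365 CD34+ probes and 4269 BM probes passed in place of 119 and 2706, and Plac8 kept its call in CD34+ cells (adjusted p = 0.000472).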

Additional observations from a re-analysis of the deposited data

How the results depend on the processing

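Plac8 stayed higher in CD34+ Cre than in control under every alternative run, with log2 differences of 1.65 to 2.39 and limma adjusted p of 0.000168 to 0.0527. It missed the threshold in the fit of the 6 arrays alone (2.14, adjusted p = 0.0527), which called 0 member probes. Leaving out single arrays kept 1 member probe called, with Plac8 between 1.96 and 2.24. No BM difference of a member changed sign: Plac8 ran from 6.10 to 6.74, Rnase12 from 5.21 to 6.81, Mtus1 from 3.25 to 4.97 and from 1.47 to 2.98, Chst13 from 2.91 to 4.49, Pxylp1 from 4.65 to 5.95 and Ccdc125 from 2.78 to 4.30. The authors' table gives no difference for the 5 probes at its floor.

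Counts of calls moved more. In CD34+ cells the 119 probes became 79 with median scaling, 75 with one probe per gene, 70 in the authors' table, 21 with repeats averaged, 23 with marrow as a random block, 14 with the 6 arrays alone, 365 with marrow number and repeat as a replicate block, 907 with marrow number as the block, and 2059 without both number 4 arrays. Leaving out single arrays gave 39 to 1816, the highest without the array labelled number 4 Cre. In BM the 2706 became 1725 with one probe per gene, 1399 in the authors' table, 4269 and 5078 with the blocks, and 5023 without both number 4 arrays (1792 to 3771 without single arrays). With median scaling 1441 of 2332 BM calls were higher, against 1366 of 2706. Listed genes past the threshold in CD34+ cells went from 0 to 2 and 7 with the blocks, 11 without both number 4 arrays and 0 to 11 without single arrays. In BM they went from 13 to 6 in the authors' table, 22 with marrow number as the block, 20 with the 6 arrays alone, 23 without both number 4 arrays and 9 to 18 without single arrays. The causes were not tested.

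For 5 of the 6 genes every level outside BM Cre lies in the background. The size of their fitted BM difference and of their "at least" folds therefore depends on the offset. The number of arrays, 3 per group and 2 marrows per CD34+ arm, limits the precision.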
